A study of Mus musculus with 16 samples.

Results

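Genes with zinc finger symbols were followed through the 2 expression tables and the 2 peak lists of a study of the erythroid transcription factor KLF1 and its Nan mutant in mouse. The genes are all rows whose symbol begins with Zfp, Zkscan, Zscan or Zbtb. The table of newly made RNA holds 43 of them among 1556 genes (33 Zfp, 6 Zbtb, 3 Zscan and 1 Zkscan), and the fetal liver table holds 5 Zfp genes among 793. With Zfp341 and Zfp771 in both tables, they are 46 genes of 2247 in all. Of RefSeq's protein-coding mouse genes 2.14% carry such a symbol, against 2.76% of the first table and 0.631% of the liver table.

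The cells were K1, an erythroblast line that lacks KLF1, and lines derived from it that carry KLF1 (K1-ER) or Nan-KLF1 (K1-NanER) fused to the oestrogen receptor (ER), which tamoxifen switches on. RNA labelled with 4-thiouridine (4sU, 500 uM for 1 h) was sequenced in 2 libraries each of K1, K1-ER and K1-NanER, all 3 lines under 200 nM 4-hydroxytamoxifen per the labels, although the deposited header names tamoxifen for the fusion lines alone. The K1-ER libraries came from clones A and C and the K1-NanER libraries from clones B and X, while both K1 libraries came from parental cells, so a difference between clones and parent is part of each value. Binding was measured with a KLF1 antibody in K1-ER and K1-NanER cells after 3 h of tamoxifen, with 3 replicates pooled into 1 library per factor and 1 input library for each. Whole livers of 3 wild-type (Klf1+/+) and 3 Nan/+ embryos at day 14.5 gave polyadenylated RNA after globin RNA had been removed. Levels are given in FPKM (fragments normalised to transcript length and to the mapped fragments of a library), for which the authors deposited 1 value per group; the spread between replicates and the depth are therefore unknown. Esr1, whose sequence the fusions share, was at 2.41 FPKM in K1, 136 FPKM with KLF1-ER and 70.3 FPKM with Nan-KLF1-ER.

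Zinc finger proteins of the C2H2 type read DNA through an array of small zinc-binding loops, and they form the largest family of transcription factors in mammals. Many mouse Zfp genes encode proteins with a KRAB domain, which recruits the corepressor TRIM28 (KAP1) and histone methylation to silence chromatin, often at transposable elements. Zscan and Zkscan proteins carry a SCAN domain for pairing with each other, and Zbtb proteins a BTB domain that pairs them and can recruit corepressors. In red cells the best known is Zbtb7a (LRF), which silences fetal globin in adult erythroid cells. KLF1 is itself a C2H2 protein, and the Nan mutation changes an amino acid in the finger array that contacts DNA. The symbols do not prove repression: Zfp36 (tristetraprolin) destabilises mRNA through another kind of zinc finger, and Zfp335, Zfp451 and Zfp593 are known for other roles.

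The regulatory sequences that bear on the binding data are the promoters in which the letters of a peak's central motif, as the authors give it, could be found. RefSeq promoters (build GRCm38.p6) were matched for 40 of the 46 genes, and the 250 bases before each start were searched on both strands with the motif of a promoter peak of the gene. The motif of the KLF1 peak of Zfp28, CCCTGCCC, lies 50 bases before the start on the opposite strand, and 4.52% of all promoters searched hold these letters. The motif of the Nan-KLF1 peak of Zfp28, CCCCGCCC, lies 60 bases before the start on the opposite strand, and 16.1% of promoters hold it. The Nan-KLF1 motifs of Zfp771 (CCCCTCCC, in 10.9% of promoters) and Zfp78 (CCCCGCCC) lie 112 and 247 bases before the start, on the strand of the gene. The 3 promoters are shown 5′ to 3′ on the gene's strand, with the matched letters, or their reverse complement in Zfp28, in capitals; the matches of Zfp28 do not overlap. All 3 lie on the plus strand of GRCm38.p6, at chr7:6383068-6383317 for Zfp28, chr7:127244276-127244525 for Zfp771 and chr7:6363058-6363307 for Zfp78.
Zfp28: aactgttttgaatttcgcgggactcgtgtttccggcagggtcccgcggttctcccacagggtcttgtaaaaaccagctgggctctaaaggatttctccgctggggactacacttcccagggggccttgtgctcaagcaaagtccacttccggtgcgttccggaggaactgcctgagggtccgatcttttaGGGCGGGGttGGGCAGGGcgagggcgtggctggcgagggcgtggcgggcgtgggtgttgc
Zfp771: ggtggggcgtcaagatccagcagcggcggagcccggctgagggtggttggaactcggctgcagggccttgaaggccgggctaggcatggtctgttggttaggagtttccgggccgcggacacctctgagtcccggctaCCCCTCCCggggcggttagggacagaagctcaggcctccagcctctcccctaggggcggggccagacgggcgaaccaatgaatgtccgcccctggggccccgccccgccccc
Zfp78: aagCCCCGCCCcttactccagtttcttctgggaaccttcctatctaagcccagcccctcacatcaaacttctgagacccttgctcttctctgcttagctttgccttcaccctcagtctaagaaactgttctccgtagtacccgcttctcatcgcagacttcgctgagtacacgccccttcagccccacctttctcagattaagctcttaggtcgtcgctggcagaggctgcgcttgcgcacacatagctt

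No match was found in the windows of Zbtb7a (CCCTTCCC, in 4.46% of promoters), Zfp36 (CCCTGCCC) or Zfp367 (CCCCACCC, in 9.05% of promoters), whose peak summits lie 829, 307 and 413 bp outside the gene's locus. A match is a description of these letters, and the absence of one says only that they are not in the window. Other motifs of the lists were not searched for and are not in capitals. Among letters not in capitals, the Zfp28 window holds GGGCGTGG, the reverse complement of CCACGCCC, which makes up 22% of all KLF1 motifs. The share of promoters that hold it was not counted. The Zfp771 window likewise holds CCCCGCCC, found in 16.1% of promoters. These letters were seen in the printed windows and are not a result of the search.

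The first comparison asked which of these genes new transcription gained or lost with KLF1-ER active. A gene was called when the authors' q for the line against K1 was at most 0.05. Of the 43 genes, 9 rose in K1-ER and 5 fell in the authors' deposited table, that is 20.9% and 11.6%, beside 37.9% and 11.5% of all genes in the table. The share that rose was thus under that of the table, and the share that fell was close to it. The median log2 fold change was 0.21 for the zinc finger genes and 0.72 for all genes.

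Zbtb7a, the globin silencer, had the highest K1 level among them, 107 FPKM, beside 515 FPKM with KLF1-ER and 242 FPKM with Nan-KLF1-ER. It rose in K1-ER (log2 fold change 2.27, q = 0.00804), while the change in K1-NanER did not pass (1.18, q = 0.0657), in the authors' deposited table. Zbtb7b (ThPOK), known for committing T cells to the CD4 lineage, measured 29.3 FPKM in K1, 144 with KLF1-ER and 88.9 with Nan-KLF1-ER. Its rises of 2.30 and 1.60 on the log2 scale both passed (q = 0.00213 each) in the authors' deposited table. The other BTB genes followed other patterns: Zbtb1 and Zbtb18 rose in K1-NanER, Zbtb45 fell in K1-NanER and Zbtb5 fell in K1-ER. So 2 of the 6 Zbtb genes rose in K1-ER and 1 fell, and 3 rose in K1-NanER and 1 fell. Of all 1556 genes, 37.9% rose and 11.5% fell in K1-ER, and 47.4% rose and 28.3% fell in K1-NanER. Counts over 6 genes do not set the Zbtb genes apart from these shares.

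Zfp28, a KRAB zinc finger gene (mm9 chromosome 7, 6336028 to 6349347), had the steepest rise with KLF1-ER. Its level was 1.45 FPKM in K1, 18.6 with KLF1-ER and 4.57 with Nan-KLF1-ER. The log2 fold changes were 3.68 in K1-ER (q = 0.00213) and 1.65 in K1-NanER (q = 0.0614, not passed) in the authors' deposited table. Zfp78, its upstream neighbour and also of the KRAB family (chromosome 7, 6316015 to 6335315), measured 1.68 FPKM in K1, 5.15 with KLF1-ER and 2.25 with Nan-KLF1-ER. It rose in K1-ER by 1.61 on the log2 scale (q = 0.0329) in the authors' deposited table, and its K1-NanER value did not pass (q = 0.755).

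Zfp296, known from the pluripotency network, measured 74.1 FPKM in K1, 241 with KLF1-ER and 79.6 with Nan-KLF1-ER. The authors' deposited table gives log2 fold changes of 1.70 for K1-ER (q = 0.00213) and 0.10 for K1-NanER (q = 0.923), so it rose in the first line and did not pass in the second. Zfp367 stood at 31.5, 81.5 and 38.3 FPKM in K1, K1-ER and K1-NanER, and Zfp821 at 13.3, 43.0 and 20.3 FPKM. Zfp703, a corepressor studied in breast cancer, stood at 8.33, 19.0 and 15.0 FPKM in that order. These 3 genes rose in K1-ER by 1.37, 1.69 and 1.19 on the log2 scale and were not called in the authors' deposited table for K1-NanER. For the 7 genes called higher in K1-ER alone, the log2 fold changes ran from 1.19 to 3.68 in K1-ER and from 0.10 to 1.65 in K1-NanER. Both lines are set against the same K1 libraries and were not tested against each other.

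Zfp36, whose protein binds AU-rich elements and speeds mRNA decay, was the steepest riser in K1-NanER. It went from 8.03 FPKM in K1 to 56.4 with KLF1-ER and 154 with Nan-KLF1-ER, and the authors' deposited table gives log2 fold changes of 2.81 and 4.26 (q = 0.00213 each). Zfp36 and Zbtb7b were the genes called higher in both lines.

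The 5 genes that fell in K1-ER were Zfp386, Zkscan17, Zscan20, Zbtb5 and Zfp865. Zfp386, a KRAB zinc finger gene, was at 2.05 FPKM in K1 and 2.18 in K1-NanER, and at 0.1 FPKM in K1-ER (q = 0.00213), in the authors' deposited table. In K1-ER 29 genes share the value 0.1, which was taken as a floor. Whether it stands for a level of 0 is not shown, and the size of the fall depends on it. Zkscan17 (Nizp1), a partner of the methyltransferase NSD1, measured 5.36 FPKM in K1, 0.663 with KLF1-ER and 3.57 with Nan-KLF1-ER. It fell by 3.02 on the log2 scale in K1-ER (q = 0.0344), and its K1-NanER value did not pass (q = 0.524), in the authors' deposited table. Zscan20 measured 14.5 FPKM in K1, 4.98 with KLF1-ER and 4.59 with Nan-KLF1-ER, and Zfp865 measured 62.4, 31.5 and 18.9 FPKM. Both fell in both lines in the authors' deposited table, with log2 fold changes of -1.54 and -1.66 for Zscan20 and of -0.99 and -1.72 for Zfp865. Zbtb5 was at 15.8, 7.21 and 8.35 FPKM in K1, K1-ER and K1-NanER and fell in K1-ER alone (log2 fold change -1.13, q = 0.0344) in the authors' deposited table.

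**Figure D1:**
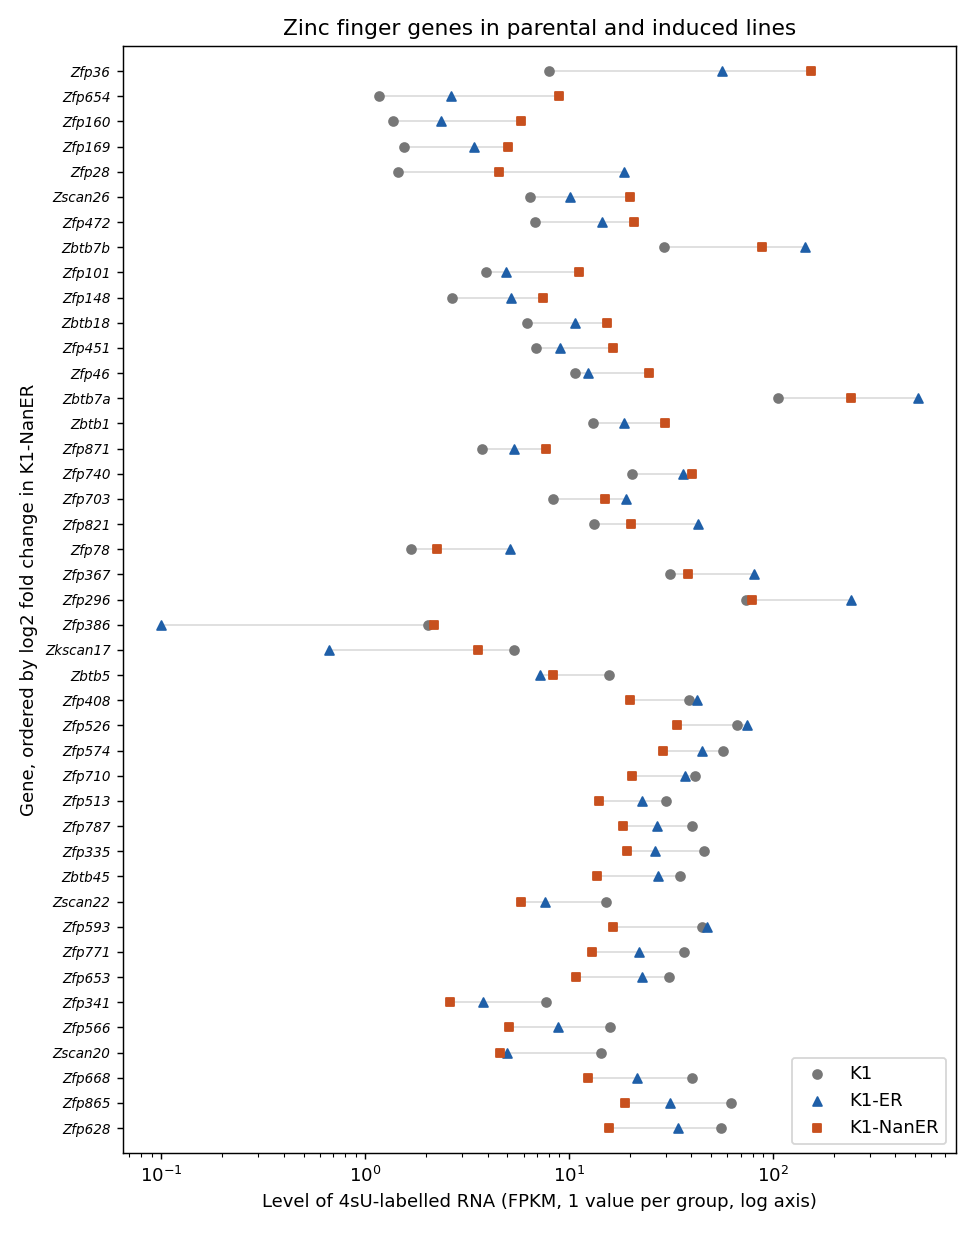
Levels of 4sU-labelled RNA in FPKM (x axis, log scale) of the 43 zinc finger genes (y axis, ordered by log2 fold change in K1-NanER) in K1 (grey circles), K1-ER (blue triangles) and K1-NanER (orange squares), 1 value per group. Zbtb7a has the highest K1-ER level, 515 FPKM, and Zfp36 the steepest rise with Nan-KLF1-ER, from 8.03 to 154 FPKM.

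With Nan-KLF1-ER active, the authors' deposited table calls 15 of the 43 genes higher (34.9%) and 18 lower (41.9%), beside 47.4% and 28.3% of all genes. More zinc finger genes fell than rose, while in the whole table more genes rose than fell. That order turned with a q of at most 0.01, which left 7 higher and 6 lower, and without chromosome 7, which left 14 higher and 7 lower. The median log2 fold change was 0.10 for the zinc finger genes and 1.04 for all genes. Above 0 were 23 zinc finger genes and below 0 were 20, against 980 and 575 of all genes. The zinc finger median thus lies between rises and falls and is not a typical change.

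The risers began from low levels. The 15 had a median of 6.45 FPKM in K1 (range 1.17 to 29.3) and of 16.4 FPKM in K1-NanER; the 737 genes of the whole table that rose had a K1 median of 6.30 FPKM. Zfp654 went from 1.17 FPKM in K1 to 2.63 with KLF1-ER and 8.94 with Nan-KLF1-ER, a log2 fold change of 2.93 in K1-NanER (q = 0.00213) in the authors' deposited table. Zfp160, Zfp169, Zfp101 and Zfp472, members of the KRAB family, rose by 2.07, 1.70, 1.52 and 1.63 on the log2 scale in the authors' deposited table for K1-NanER. Their K1-NanER levels were 5.82, 5.04, 11.2 and 21.0 FPKM. Zscan26, a SCAN gene, rose from 6.45 to 20.1 FPKM (log2 fold change 1.64, q = 0.00213), in the authors' deposited table.

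The other risers in K1-NanER had smaller changes. Zfp148 (ZBP-89), which binds GC-rich promoters as KLF and Sp factors do, measured 2.68 FPKM in K1, 5.21 with KLF1-ER and 7.48 with Nan-KLF1-ER (log2 fold change 1.48, q = 0.00213, in the authors' deposited table). Zbtb18 (RP58), a repressor studied in neurons, stood at 6.24, 10.7 and 15.4 FPKM in K1, K1-ER and K1-NanER. Zbtb1, needed for lymphoid development, stood at 13.2, 18.7 and 29.8 FPKM in that order. Zfp451, a SUMO ligase, stood at 6.94, 9.04 and 16.4 FPKM. Zfp46, Zfp740 and Zfp871 were also called, and the authors' deposited table lists their log2 fold changes as 1.22, 0.97 and 1.05. For the 13 genes called higher in K1-NanER alone, the log2 fold changes ran from 0.97 to 2.93 in K1-NanER and from 0.21 to 1.17 in K1-ER.

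The genes that fell in K1-NanER began higher, with a K1 median of 39.5 FPKM (range 7.69 to 67.3) and a K1-NanER median of 14.9 FPKM; all 441 genes that fell had a K1 median of 46.1 FPKM. Zfp628 went from 55.7 FPKM in K1 to 34.5 with KLF1-ER and 15.7 with Nan-KLF1-ER, the steepest fall of the zinc finger genes in K1-NanER (log2 fold change -1.83, q = 0.00213, in the authors' deposited table). Zfp668, linked to DNA repair, went from 40.2 to 21.6 and 12.4 FPKM (log2 fold change -1.69 in K1-NanER, q = 0.00213, in the authors' deposited table). Zfp566, Zfp341 and Zfp653 fell in K1-NanER as well, and the authors' deposited table gives log2 fold changes of -1.65, -1.56 and -1.51. Zfp341, known as an activator of STAT3 transcription, measured 7.69 FPKM in K1, 3.80 with KLF1-ER and 2.62 with Nan-KLF1-ER.

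Some falls in K1-NanER stood beside K1-ER levels at or above K1. Zfp593, tied to ribosome assembly, measured 45.2 FPKM in K1, 47.8 with KLF1-ER and 16.4 with Nan-KLF1-ER, and Zfp526 measured 67.3, 75.1 and 34.1 FPKM. Zfp408, known from the retina, was at 38.8, 42.7 and 19.98 FPKM. These 3 fell in K1-NanER, with log2 fold changes of -1.46, -0.98 and -0.96 and K1-ER values that did not pass (q = 0.946, 0.871 and 0.886), in the authors' deposited table. For the 16 genes called lower in K1-NanER alone, the log2 fold changes ran from -1.83 to -0.96 in K1-NanER and from -1.02 to 0.16 in K1-ER. Zfp771, described with the liver values, fell 2.82-fold in K1-NanER. The remaining called falls were Zbtb45, Zfp335 (a nuclear coactivator), Zfp513, Zfp574, Zfp710, Zfp787 and Zscan22, with log2 fold changes from -1.39 to -0.98 in the authors' deposited table for K1-NanER. RefSeq spans of Zfp335, Zfp341, Zfp526, Zfp574, Zfp593, Zfp628, Zfp653, Zfp710 and Zfp787 overlap another gene, so these levels may hold its reads.

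**Figure D2:**
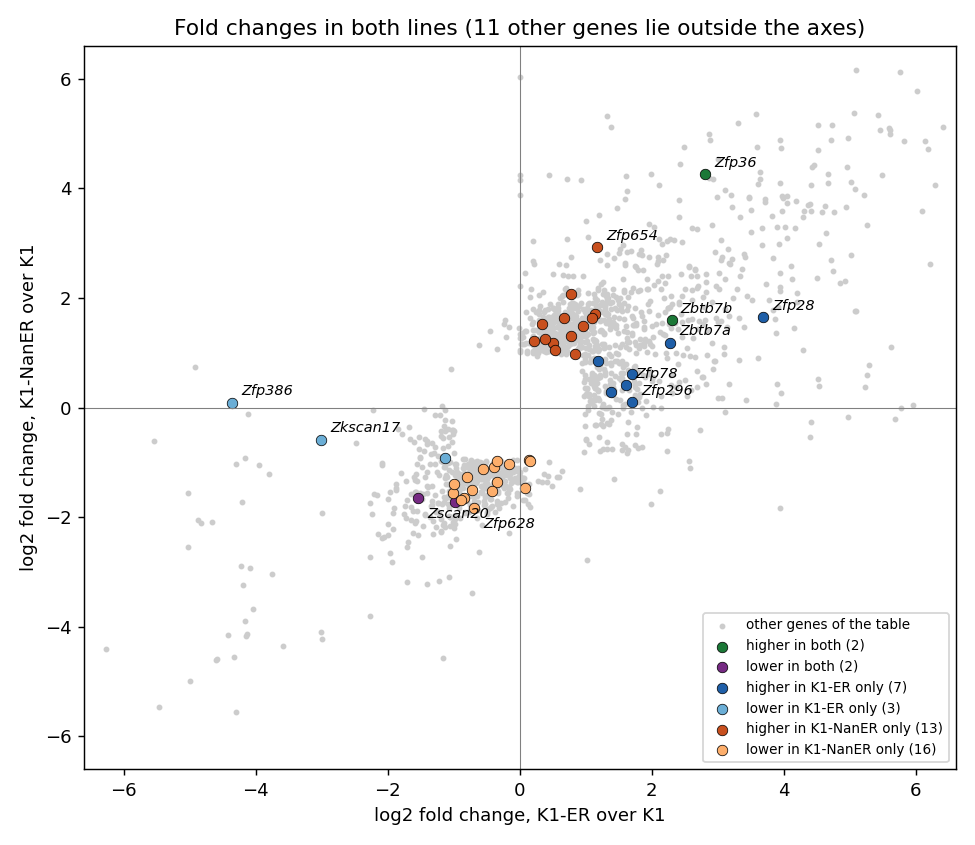
The authors' log2 fold changes over K1 in K1-ER (x axis) and K1-NanER (y axis) of 43 zinc finger genes (coloured by call, with the number of genes) and of the other genes of the table (grey). Both axes use the same K1 libraries; 7 zinc finger genes were called higher in K1-ER alone, 13 higher and 16 lower in K1-NanER alone, and 4 in both lines.

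Chromosome moved with the falls in K1-NanER. Of the 43 genes 15 (34.9%) lie on chromosome 7, against 9.51% of all genes in the table; in RefSeq 22.2% of protein-coding genes with such symbols and 9.27% of all protein-coding genes lie there. On chromosome 7, 11 zinc finger genes fell in K1-NanER and 1, Zfp36, rose; the median of their log2 fold changes from the authors' deposited table was -1.13. The 133 other genes of chromosome 7 had a median of -1.10, with 73 falls and 19 rises, in the authors' deposited table. Away from chromosome 7, 14 zinc finger genes rose and 7 fell, with a median of 1.01, beside a median of 1.11 for the 1380 other genes there. In K1-NanER, zinc finger genes thus had medians near those of the other genes both on chromosome 7 and off it. In K1-ER the medians on chromosome 7 were -0.35 for zinc finger genes and -0.23 for other genes, in the authors' deposited table. Off chromosome 7 the K1-ER medians were 0.52 for zinc finger genes and 0.77 for other genes, and 17.9% of the former rose, against 38.8% of the latter. Without chromosome 7, 9 zinc finger genes were called in K1-ER and 21 in K1-NanER, and their medians were 0.52 and 1.01. Calls lower in K1-NanER were also the majority on chromosomes 8, 5, 2, 4 and 6 (79.7%, 66.1%, 64.0%, 58.8% and 51.5% of called genes), and on chromosome 12 they were 2.38%. The number of copies of each chromosome in these clones was not measured, and its part in the falls was not tested. Genes of chromosome 7 also began higher. Their K1 medians were 40.2 FPKM (zinc finger genes) and 29.7 FPKM (other genes), against 9.52 and 12.1 FPKM off it. Chromosome and K1 level thus went together, and their parts in the falls were not tested apart.

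**Figure D3:**
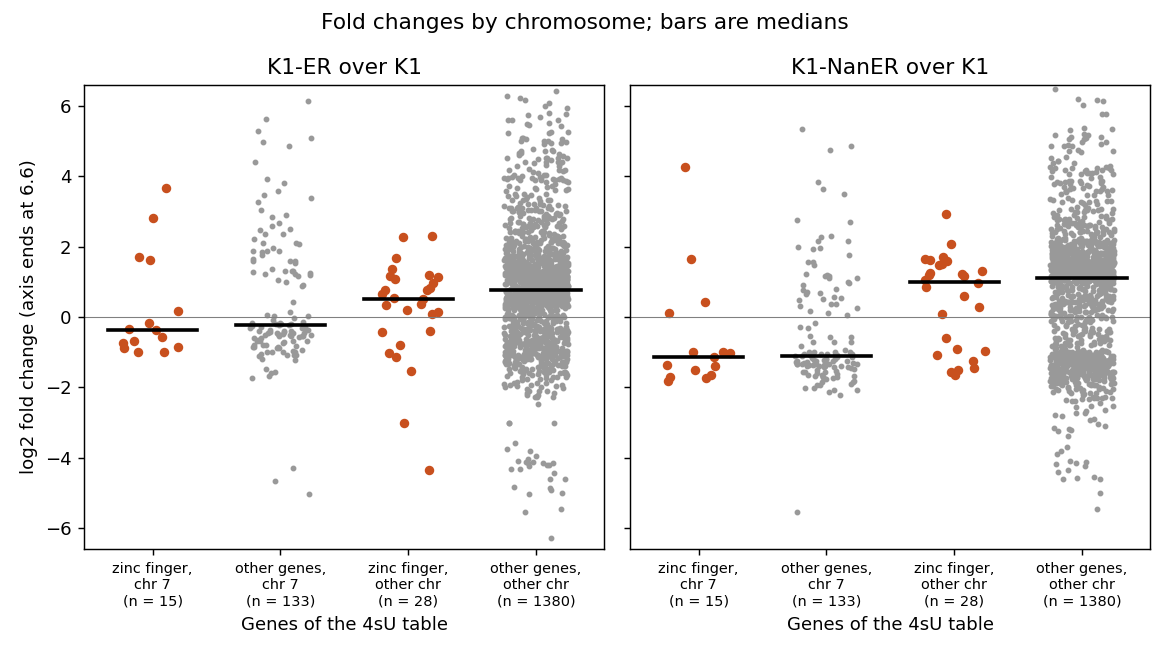
The authors' log2 fold changes over K1 (y axis) in K1-ER (left) and K1-NanER (right) for zinc finger genes (orange) and other genes (grey) on chromosome 7 and on other chromosomes; each point is a gene and each bar a median, and values beyond 6.6 are not drawn. In K1-NanER the chromosome 7 medians are -1.13 and -1.10, against 1.01 and 1.11 elsewhere.

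Level in K1 moved with direction as well. With the table cut into 5 bins of K1 level, none of the 7 zinc finger genes in the lowest bin (0.1 to 3.05 FPKM) had a log2 fold change below 0 in K1-NanER, against 9.94% of all genes of that bin. In bin 2 (3.06 to 8.42 FPKM) 2 of 10 were below 0, against 10.9% of all genes. In bin 3 (8.47 to 20.1 FPKM) 4 of 7 were below 0, against 29.9%, and the median log2 fold change was -0.92 for zinc finger genes and 1.06 for all genes of the bin. That zinc finger median is the value of Zbtb5, which was not called in K1-NanER (q = 0.0979 in the authors' deposited table). In bin 4 (20.2 to 45.9 FPKM) 9 of 12 zinc finger genes were below 0, against 55.0% of all genes, and in the highest bin 5 of 7, against 79.1%. Zinc finger medians in bins 1, 2, 4 and 5 were 1.65, 1.27, -1.11 and -0.98. Those of all genes were 2.17, 1.42, -0.48 and -1.23, of the same sign in each of these bins. The K1 level is part of each fold change, so the bins describe the values and test nothing. The zinc finger genes had a K1 median of 15.3 FPKM and all genes one of 13.4 FPKM.

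The median locus length of the zinc finger genes was 13320 bp (range 2445 for Zfp36 to 123129 for Zfp148), against 17815 bp for all genes. On chromosome 7 the medians were 10425 bp for zinc finger genes and 11970 bp for other genes. Off chromosome 7 they were 18933 and 19419 bp, so the lengths were near each other there. The 9 zinc finger genes that rose in K1-ER had a median of 15387 bp, against 14747 bp for all genes that rose. The 5 that fell had 21170 bp, against 13128 bp. The zinc finger genes that rose in K1-NanER had a median of 14459 bp, against 29704 bp for all genes that rose. Those that fell had a median of 10945 bp, close to the 10993 bp of all genes that fell.

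The peak lists name a zinc finger gene as nearest (within 300 kb) for 93 of 5326 KLF1 peaks (1.75%) and 54 of 2758 Nan-KLF1 peaks (1.96%). These peaks belong to 64 and 39 genes, of which 24 have peaks of both factors. That is 37.5% of the zinc finger genes of the KLF1 list and 61.5% of those of the Nan-KLF1 list. The same shares over all genes of the lists were not counted, so these values do not set zinc finger genes apart from other genes. The 24 genes are the same in both shares, which differ because the lists name 64 and 39 zinc finger genes. Most of these zinc finger genes are in neither expression table: 13 of the 79 named in either list are among the 46. The 4sU table holds 9 of the 64 genes of the KLF1 list and 10 of the 39 of the Nan-KLF1 list. Of all genes named in those lists it holds 713 of 3809 and 413 of 2148, so most named genes of any kind are outside it. Of the 43 genes of the 4sU table, 9 (20.9%) have a KLF1 peak and 10 (23.3%) a Nan-KLF1 peak, beside 45.8% and 26.5% of all genes of the table. Peaks of both factors lie near 14% of the 43 genes, against 21.7% of all genes there. The share with a KLF1 peak was less than that of the table, and the share with a Nan-KLF1 peak was near it.

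Of the 9 zinc finger genes with a KLF1 peak 7 rose in K1-ER, as did 419 of the 713 genes of the whole table with one. Of the 9 zinc finger risers in K1-ER 7 have a KLF1 peak (77.8%), near the 71.1% of all genes that rose. These are Zbtb7a, Zfp28, Zfp296, Zfp36, Zfp367, Zfp703 and Zfp78, and the exceptions are Zbtb7b and Zfp821. None of the 5 that fell in K1-ER has one, against 17.9% of all genes that fell. Of the 29 not called in K1-ER 2 have one, Zfp408 and Zfp787 (6.9%, against 33.2% of all genes not called). Of the 13 genes called higher in K1-NanER alone, 1 has a Nan-KLF1 peak, Zfp46, and none has a KLF1 peak; among all 448 such genes 22.8% and 39.7% do. Of the 16 called lower in K1-NanER alone, 3 have a Nan-KLF1 peak, Zfp574, Zfp710 and Zfp771 (18.8%, against 11.8% of all 340 such genes), and 2 have a KLF1 peak, Zfp408 and Zfp787 (12.5%, against 24.7%).

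Zfp28 carries the KLF1 peak with the top fold enrichment of its list, which ties for rank 1. In the authors' peak list it is a promoter peak of 1151-fold ChIP over input at chr7:6335644-6336343, with its summit 42 bp before the locus. The Nan-KLF1 peak in that promoter (chr7:6335730-6336330) has a fold enrichment of 117 in the authors' list, with its summit 128 bp before the locus. The peaks overlap, and their summits are 86 bp apart. The authors list CCCTGCCC as the central motif of the first and CCCCGCCC as that of the second. The peak sequences were not read, so whether the capitals in the Zfp28 promoter are those motifs is not shown; the match to CCCCGCCC lies 60 bases before the RefSeq start and the Nan-KLF1 summit 128 bp before the mm9 locus. Zfp78 has a KLF1 promoter peak (fold enrichment 49.3, summit 26 bp before the locus), a KLF1 peak in an intron (98.1) and a Nan-KLF1 promoter peak (58.5) whose summit lies 862 bp before the locus. The match printed for Zfp78, 247 bases before its start, is thus not at that summit.

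Zbtb7a and Zfp36 have several peaks. Zbtb7a has 4 KLF1 peaks, with fold enrichments of 209.6 in the promoter, 112 at a distal site, and 73.2 and 40.2 in introns, and 2 Nan-KLF1 peaks, 136 in the promoter and 58.5 distal, in the authors' lists. The promoter summits of both factors are 45 bp apart, and both have CCCTTCCC as central motif. Zfp36 has 3 peaks of each factor, which overlap pairwise. The KLF1 fold enrichments are 183 downstream, 48.8 distal and 41.9 in the promoter, and those of Nan-KLF1 are 97.5, 128 and 136 in that order, in the authors' lists. The downstream summits are 14 bp apart, with CCCCGCCC for KLF1 and CCCCACCC for Nan-KLF1. Fold enrichments of separate libraries are not compared between factors.

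Zfp367 has 1 KLF1 promoter peak (fold enrichment 360, CCCCACCC) and Zfp296 KLF1 peaks of 54.3 and 47.8, with Nan-KLF1 peaks of 214 and 68.2, in the authors' lists. Both Nan-KLF1 peaks of Zfp296 overlap its first KLF1 peak. Zfp703 has KLF1 peaks in the promoter (53.1) and coding sequence (38.6) and a Nan-KLF1 peak between them (86.7) that overlaps neither. Of the 17 KLF1 peaks nearest to genes of the tables, 8 (47.1%) overlap a Nan-KLF1 peak by at least 1 bp, against 22.8% of all KLF1 peaks. Of the 14 Nan-KLF1 peaks, 9 (64.3%) overlap a KLF1 peak, against 44.8% of all. Zfp36 and Zbtb7a supply 5 of the 8, so these peaks are not independent of one another. Among peaks nearest to any gene with these symbols, in the tables or not, 30 of 93 KLF1 peaks (32.3%) overlap a Nan-KLF1 peak. In the other direction 31 of 54 Nan-KLF1 peaks (57.4%) overlap a KLF1 peak. The authors' own intersection holds 4 of the 17 KLF1 peaks, beside 761 of all 5326.

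**Figure D4:**
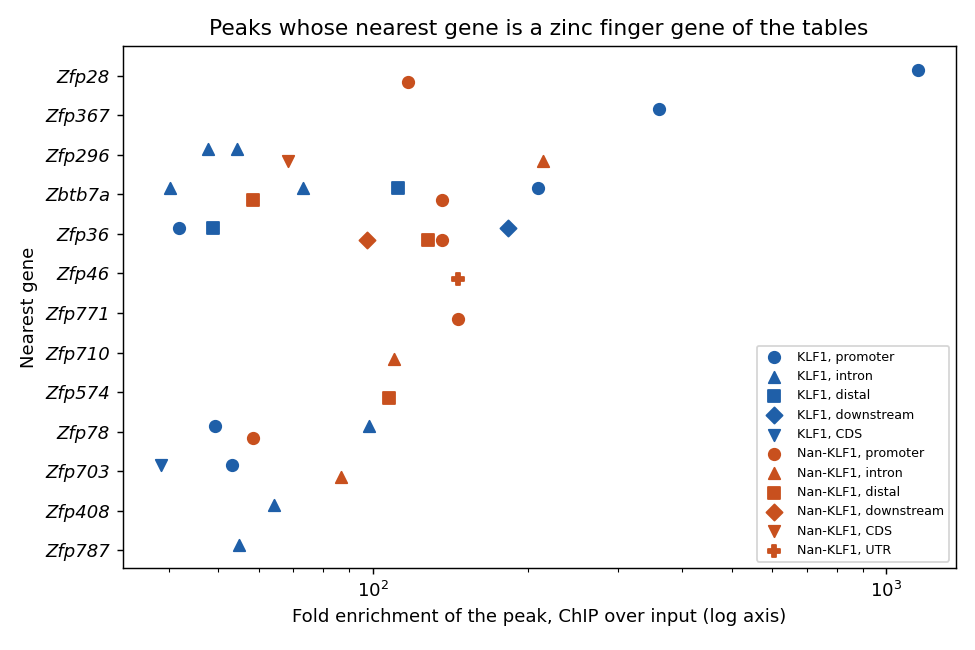
Fold enrichment over input (x axis, log scale) of the 17 KLF1 (blue) and 14 Nan-KLF1 (orange) peaks whose nearest gene (y axis) is a zinc finger gene of the expression tables, with the authors' location class as the symbol. The KLF1 promoter peak of Zfp28, at 1151, lies apart from the others, and Zfp46, Zfp574, Zfp710 and Zfp771 have Nan-KLF1 peaks alone.

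Central motifs differed between the lists near zinc finger genes as they did over all peaks. The authors give a motif of 8 letters for 76 of the 93 KLF1 peaks and 42 of the 54 Nan-KLF1 peaks. Letter 4 of it is C in 75.0% of the KLF1 motifs near zinc finger genes (80.2% over the list) and in 45.2% of the Nan-KLF1 motifs near them (50.3% over the list). CCACACCC makes up 14.5% of KLF1 motifs near zinc finger genes and none of the 42 for Nan-KLF1 (13.2% and 1.49% over the lists). CCCTGCCC makes up 6.58% of KLF1 motifs and 28.6% of Nan-KLF1 motifs near zinc finger genes (4.31% and 19.0% over the lists). Among genes outside the expression tables, Zfpm1 (FOG1), the partner of GATA1 in red cell and platelet precursors, has the most Nan-KLF1 peaks of any zinc finger gene, 7, beside 4 KLF1 peaks. Its fold enrichments run from 40.4 to 107 for KLF1 and from 73.3 to 380 for Nan-KLF1 in the authors' lists. Zfp36l2, a relative of Zfp36 that supports red cell progenitors, has 4 KLF1 and 2 Nan-KLF1 peaks, and Zfp36l1 has 1 KLF1 peak. Zfpm1, Zfp36l1, Zfp36l2 and Zbtb16 are not listed in either expression table and were not analysed there.

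In fetal liver, Nan/+ embryos were compared with wild type. The table lists genes that passed the authors' test and whose log2 fold changes reach 1 or more in size; 1 zinc finger gene, Zfp771, was higher in Nan/+ and 4 were lower, beside 75.4% and 24.6% of all genes listed. Zfp771 rose from 6.64 FPKM in wild type to 22.2 in Nan/+ (log2 fold change 1.74, q = 0.00244), in the authors' deposited table. Zfp667 (Mipu1), a KRAB repressor, fell from 4.03 to 1.14 FPKM, and Zfp341 from 3.55 to 1.45 FPKM. Zfp534, of the KRAB family, fell from 2.04 to 0.83 FPKM, and Zfp462, a chromatin regulator of stem cells, from 1.27 to 0.55 FPKM. Their log2 fold changes were -1.82, -1.29, -1.30 and -1.20 (q = 0.00244, 0.0128, 0.0251 and 0.0334) in the authors' deposited table. In whole liver, fewer cells of a type and less RNA per cell cannot be told apart.

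Markers of other cells moved between these livers. All 5 granulocyte markers listed were higher in Nan/+ (summed level 396 to 2367 FPKM), 2 of 6 macrophage markers were listed as higher (91.9 to 213 FPKM), and all 5 skeletal muscle markers were lower (41.3 to 1.67 FPKM), in the authors' deposited table. Xist, the RNA of the silenced X chromosome of female cells, stood in the authors' deposited table at 25.1 FPKM in wild type and 0.04 in Nan/+. The sex of the embryos may thus differ between the groups. The part of these differences in the zinc finger values was not tested. Of 13 erythroblast markers the liver table lists 2, Hba-x and Hbb-bh1, while 8 are in the 4sU table, all 8 higher in K1-ER and 6 in K1-NanER; these tables hold changed genes alone, so an unlisted marker says nothing of its level.

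Both genes shared by the tables stand in all 5 groups. Zfp771 measured 36.9 FPKM in K1, 22.2 with KLF1-ER and 13.1 with Nan-KLF1-ER; it fell in K1-NanER (2.82-fold lower than in K1, q = 0.0116) and rose in Nan/+ liver, in the authors' deposited tables. It is the only zinc finger gene of the liver table with a peak in either list: a Nan-KLF1 promoter peak (fold enrichment 146, chr7:134387587-134388314 on mm9) with its summit 150 bp before the locus and no overlapping KLF1 peak. The authors list CCCCTCCC as its central motif; the match in capitals in the Zfp771 promoter lies 112 bases before the start, and whether it is that motif is not shown. Zfp341 was lower in Nan/+ liver and fell in K1-NanER (q = 0.0459) in the authors' deposited tables, and has no peak in either list. The cell and liver comparisons share no libraries. Levels were not compared across the tables, which come from different kinds of RNA.

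**Figure D5:**
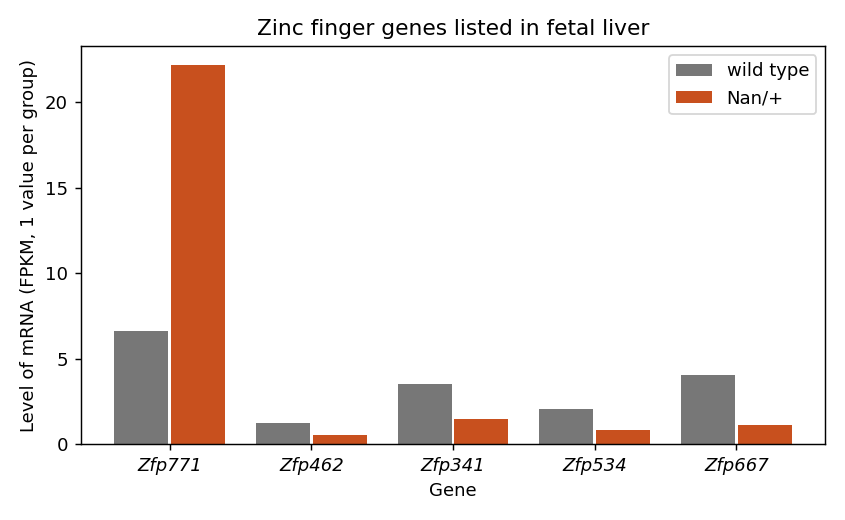
Levels of polyadenylated RNA in FPKM (y axis, from 0) of the 5 zinc finger genes in the liver table (x axis), in wild-type (grey) and Nan/+ (orange) fetal liver, 1 value per group. Zfp771 stands at 6.64 and 22.2 FPKM, and the other 4 genes are lower in Nan/+.

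RNA of corepressor genes, whose proteins zinc finger repressors recruit, was counted in the same way. Of 52 listed corepressor genes 11 are in the authors' deposited table for 4sU RNA; 4 rose and 1 fell in K1-ER, and 6 rose and 4 fell in K1-NanER. Among all genes tabled there, 37.9% rose and 11.5% fell in K1-ER, and 47.4% rose and 28.3% fell in K1-NanER, so the counts of these 11 genes are near the background. Trim28, the corepressor of KRAB proteins, also lies on chromosome 7 and measured 176 FPKM in K1, 136 in K1-ER (q = 0.638) and 87.6 in K1-NanER (log2 fold change -1.01, q = 0.0477) in the authors' deposited table. Atf7ip, a partner of the methyltransferase SETDB1, fell from 52.7 to 26.3 FPKM in K1-NanER (q = 0.0392) in the authors' deposited table. Bcor, which binds BCL6 and other BTB proteins, rose in both lines, from 46.7 to 142 and 101 FPKM, in the authors' deposited table. Dnmt3b, a DNA methyltransferase, rose in K1-NanER from 0.755 to 9.44 FPKM (log2 fold change 3.64, q = 0.00213) in the authors' deposited table. Of 37 other C2H2 factors outside the symbol rule, 3 are in the 4sU table: Casz1 and Yy1 rose in both lines and Zik1 fell in K1-ER. Gfi1, a repressor of the myeloid lineage, was the one in the liver table, at 0.61 FPKM in wild type and 2.37 in Nan/+ (q = 0.00244) in the authors' deposited table. No corepressor of the list is in the liver table.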

How the data were processed

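The members, the lists and the rule for named genes were chosen with earlier results of these data known. FPKM, log2 fold changes, p-values and q values are those of the authors' deposited tables, 1 value per group or comparison, and the fold enrichment (a ratio of ChIP over input), the peak rank (used as a score within its own list), the nearest gene and the central motif are those of the authors' deposited peak lists. Build mm9, MACS 1.4.2 and TopHat2 2.0.10 are listed in the submitters' processing notes, and which program gave FPKM and q is not given in the sources used here. No model was fitted and no test was run, because the tables give no replicate values, and the depth is unknown. The labels do not state that both K1 libraries are separate cultures or that the embryos of a group had different mothers. Calls use a q of at most 0.05 over the authors' tests. The 4sU table lists genes called in at least 1 comparison, so every percentage is among such genes. Genes were counted, and peaks overlapped by at least 1 bp, with Python 3.11.15 and pandas 2.3.3, in functions tested on simulated data. Locus starts are printed 1 higher than deposited, since 414 of 1392 loci match the RefSeq length as end minus start and 39 are 1 short; lengths are end minus start as deposited. Distances run from a summit to the nearest edge of the locus. The rule for named genes took all members called in both lines, the 8 steepest rises and 8 steepest falls per line, every liver member, every member with a promoter peak, and 7 genes with a known role in blood; other members were named to complete the groups. RefSeq spans of 16 of the 46 genes overlap another annotated gene, namely Zbtb1, Zbtb7b, Zfp169, Zfp335, Zfp341, Zfp462, Zfp526, Zfp574, Zfp593, Zfp628, Zfp653, Zfp710, Zfp740, Zfp787, Zkscan17 and Zscan26. Whether counting used strand is not given in the sources used here, and KRAB genes have close paralogs, so their levels may hold reads of other genes. The values of 1 listed corepressor are not reported here.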

Additional observations from a re-analysis of the deposited data

How the results depend on the processing

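With a q of at most 0.01 the called zinc finger genes went from 14 to 9 in K1-ER (7 higher and 2 lower), from 33 to 13 in K1-NanER (7 higher and 6 lower, which turns the order of rises and falls) and from 5 to 2 in liver. Requiring at least 1 FPKM in the higher group changed none of the 3 counts. Fold changes of log2(FPKM + 1) kept the sign of the 3 medians, and the liver median went from -1.29 to -0.73. Peaks at or above the median fold enrichment of their list left 5 of 9 genes with a KLF1 peak and 8 of 10 with a Nan-KLF1 peak, and a limit of 10 kb left both counts unchanged. An overlap of 50% of the shorter peak kept the 8 shared KLF1 peaks, and the authors' own intersection holds 4 of them. Leaving out chromosome 7, chosen after seeing the data, gave 9 calls in K1-ER and 21 in K1-NanER, medians of 0.52 and 1.01, and a median length of 18933 bp. The other genes off chromosome 7 had a median length of 19419 bp. No paired analysis was possible because the tables give 1 value per group, which also allowed no replicate to be left out. The restriction to proteins with several C2H2 motifs was not run, since no protein table was used here.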
